A study of Mus musculus with 12 samples.

Results

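The 10 genes described here encode the proteins that coat lipid droplets and regulate their turnover at the surface. They are the perilipins *Plin1* to *Plin5*, the CIDE genes *Cidea*, *Cideb* and *Cidec*, and the lipase inhibitors *Hilpda* and *G0s2*. They were chosen by name, as the rows of the expression table whose Ensembl identifier carries one of these symbols, and all 10 were found among 46983 genes. RNA was sequenced from C2C12 cells, a mouse myoblast line that fuses into myotubes when it differentiates, in 4 groups of 3 libraries. WT_0d and WT_5d were control cells with the PB-IP vector before differentiation and after 5 days of it, and PPARγ/+_0d and PPARγ/+_5d were cells with the PPARγ coding sequence in that vector at the same times. By the study's methods the construct was inserted with a PiggyBac transposase and positive cells were kept with puromycin, and whether a line goes back to 1 clone is not given in the sources used here. The sample labels call the control cells wild type, while the series text calls them uninduced cells of an inducible line, and the promoter of the construct is not given in the sources used here. The comparisons ask how each of the 10 genes differed between 0d and 5d of differentiation in each line, and between the lines on each day.

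A lipid droplet is a core of neutral lipid under a phospholipid monolayer, and the proteins bound to that layer decide how easily lipases reach the core. Perilipin 1 is the major coat of the adipocyte droplet and holds the lipase co-activator ABHD5 until the cell is stimulated, perilipins 2 and 3 are found in most tissues, perilipin 4 coats small nascent droplets, and perilipin 5 is known from oxidative tissues such as heart and muscle. CIDE proteins promote the transfer of lipid between droplets that touch, and HILPDA and G0S2 inhibit adipose triglyceride lipase. PPARγ is the nuclear receptor that drives adipocyte differentiation, and several of these genes are known as targets of PPAR family receptors.

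*Pparg*, the overexpressed gene, was read in every library first. Its FPKM, the number of fragments scaled to transcript length and to the mapped fragments of the library, was 7.56, 5.10 and 6.92 in WT_0d and 3.12, 3.53 and 4.59 in WT_5d (replicates 1, 2 and 3 throughout). It was 44.4, 28.0 and 46.4 in PPARγ/+_0d and 40.1, 44.1 and 92.7 in PPARγ/+_5d, so all PPARγ/+ libraries lay above all WT libraries, as labelled. *Pparg* fragments from the transgene and from the chromosomal gene cannot be told apart. Between 18581300 and 26073154 mapped fragments per library were inferred from the steps between FPKM values. 2 libraries stood apart from their groups. In WT_5d replicate 3 the summed FPKM of the 8 myotube markers was 442, against 1963 and 1439 in the other WT_5d libraries and 357 to 430 in PPARγ/+_5d. In PPARγ/+_5d replicate 3 the summed FPKM of the 8 adipocyte markers was 93.6, against 33.6 and 40.5, and *Pparg* was 2.10 times the next library. Where leaving out either of these libraries ended a call of a coat gene or moved its value by over 1.5 times, the value without it is given beside the result. The labels give no batch. The study calls the 3 libraries of a group biological replicates. Neither it nor the labels say whether they came from separate cultures, so p-values measure only the spread between these samples.

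The promoters of the 5 genes that the results turn on are printed here because *Pparg* is a transcription factor and the genes differ in how they moved. Each line gives the 250 bases before the RefSeq transcription start in GRCm38.p6, 5′ to 3′ on the strand of the gene, which is the minus strand for all 5. The windows are chr7:79732777-79733026, chr4:86670060-86670309, chr17:56109783-56110032, chr6:113435761-113436010 and chr1:193273189-193273438. Capitals mark a match, on either strand, to AGGTCA, the nuclear receptor half-site, or to CAGCTG, the E-box core bound by MyoD.
Plin1: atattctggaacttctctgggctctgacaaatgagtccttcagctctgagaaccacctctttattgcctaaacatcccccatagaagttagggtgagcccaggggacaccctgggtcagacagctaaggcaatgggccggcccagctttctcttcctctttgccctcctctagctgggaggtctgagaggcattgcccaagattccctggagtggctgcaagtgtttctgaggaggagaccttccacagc
Plin2: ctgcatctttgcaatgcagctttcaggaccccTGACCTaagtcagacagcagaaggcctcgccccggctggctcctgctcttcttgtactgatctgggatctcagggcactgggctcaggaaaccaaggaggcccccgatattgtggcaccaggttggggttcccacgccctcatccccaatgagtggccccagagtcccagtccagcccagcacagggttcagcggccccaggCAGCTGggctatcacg
Plin4: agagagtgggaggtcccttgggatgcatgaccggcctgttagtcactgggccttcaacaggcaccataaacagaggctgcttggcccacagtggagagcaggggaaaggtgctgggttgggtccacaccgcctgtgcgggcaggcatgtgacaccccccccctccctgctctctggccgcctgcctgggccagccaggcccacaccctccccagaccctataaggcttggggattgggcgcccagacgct
Cidec: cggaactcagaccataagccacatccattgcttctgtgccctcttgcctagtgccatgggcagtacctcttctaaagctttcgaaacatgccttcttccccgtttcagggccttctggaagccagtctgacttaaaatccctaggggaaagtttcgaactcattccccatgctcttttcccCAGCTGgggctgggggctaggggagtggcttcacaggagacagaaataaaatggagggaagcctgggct
G0s2: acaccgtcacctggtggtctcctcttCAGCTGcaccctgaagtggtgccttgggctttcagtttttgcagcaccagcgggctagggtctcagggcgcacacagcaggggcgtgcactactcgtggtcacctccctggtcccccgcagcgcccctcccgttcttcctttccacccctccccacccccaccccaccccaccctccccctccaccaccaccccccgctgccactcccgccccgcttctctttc
Counted back from the start, the half-site of *Plin2* begins at -218 and its E-box at -16, and the E-box begins at -69 in *Cidec* and at -224 in *G0s2*, and the printed windows of *Plin1* and *Plin4* hold neither. In the 250 bases before the start, 2 of the 12 windows of coat genes held the half-site (*Plin2* and *Plin5*) and 3 the E-box, against 14% and 13% of 32851 RefSeq windows. In the full RefSeq windows of 300 bases, 250 before to 50 after a start, 3 of the 12 held the half-site and 5 the E-box (*Cidec*, *G0s2*, *Plin1*, *Plin2* and *Plin5*), against 16.3% and 16.3% of all, and the E-box of *Plin1* lies outside the bases printed. The PPAR element is a direct repeat of the half-site with 1 base between, AGGTCANAGGTCA. It was absent from the same 12 windows, of the 9 genes that have one in the table, also when the fourth base of each repeat was left free (AGGNCANAGGNCA), and was present in 0.0396% and 0.381% of all windows. These letters overlap the half-site by construction, and their absence from windows of this length says nothing about binding elsewhere. ACGTG, the core of the hypoxia response element, was found in windows of *Hilpda* and *Plin2* and in 19.6% of all windows.

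*Plin2* and *Plin3* carried the largest levels of the set in WT cells before differentiation. On the FPKM scale, which is per transcript length and so allows levels of different genes to be compared, mean levels in WT_0d were 50.1 ± 5.46 (SD, n = 3) for *Plin3* and 48.0 ± 6.88 for *Plin2*, and the libraries of both overlapped. *Plin4* followed with 12.9 ± 2.51, then *Hilpda* with 7.23 ± 1.05 and *G0s2* with 6.51 ± 2.02, which overlapped each other. *Plin1*, *Plin5*, *Cidea*, *Cideb* and *Cidec* each lay at or under 0.2025 FPKM in every WT_0d library. In WT_5d *G0s2* stood beside *Plin3* and *Plin2*, with means of 40.8, 43.9 and 39.4 FPKM, whose neighbours in this order overlapped. In PPARγ/+_5d *Plin2* came first with 90.5 ± 17.4 FPKM and did not overlap with the next gene, *Plin4* (52.5 ± 13.3), which overlapped with *Plin3* (44.1 ± 1.06). *G0s2* followed with 31.9 ± 1.34 FPKM.

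Summed over the 10 genes, the level was 115.5 to 140.7 FPKM in WT_0d, 130.3 to 150.4 in WT_5d, 154 to 164 in PPARγ/+_0d and 205 to 266 in PPARγ/+_5d. The ratio of *Plin2* to *Plin3* within a library was 0.933 to 0.993 in WT_0d and 0.734, 0.769 and 1.17 in WT_5d, against 1.07 to 1.45 in PPARγ/+_0d and 1.69 to 2.51 in PPARγ/+_5d. The ratio of *Plin4* to *Plin3* was 0.0726, 0.139 and 0.387 in WT_5d and 0.993, 1.04 and 1.55 in PPARγ/+_5d. The set thus had more *Plin2* and *Plin4* RNA per *Plin3* RNA in every PPARγ/+_5d library than in any WT library.

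**Figure D1:**
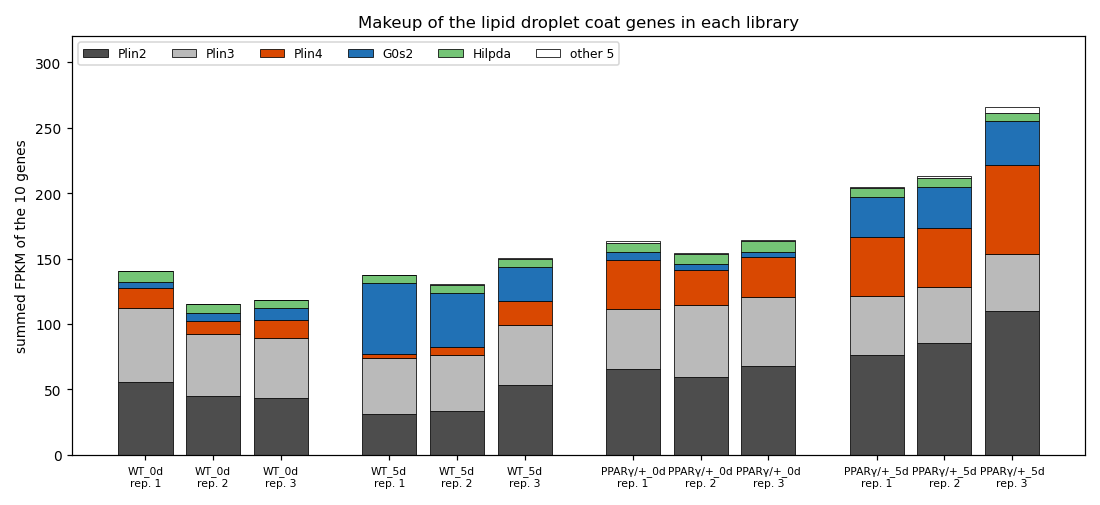
Summed FPKM of the 10 lipid droplet coat genes in each of the 12 libraries, stacked by gene, with the 5 genes of low level joined as "other 5". The PPARγ/+_5d libraries reach 205 to 266 FPKM and have larger *Plin2* and *Plin4* segments than the WT_5d libraries, and the *G0s2* segment is wide in both groups on 5d.

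On 5d, 4 coat genes were called higher in PPARγ/+ than in WT cells, namely *Plin1*, *Plin2*, *Plin4* and *Cidec*, and none was called lower. A gene was called here when it differed at least 2-fold with a Benjamini-Hochberg adjusted p of 0.05 or less in limma over all 12 libraries, on log2(FPKM + 0.1), a scale that understates the change of low genes. Of the 18023 genes tested, 0.571% were called higher by this rule, 0.533% lower and 1.1% in either direction. *Plin1*, *Plin5* and *Cidec* entered the test only through their PPARγ/+ libraries and therefore had to be higher there, so their part in a count of higher members is fixed by the filter. *Cidea* did not enter it. The PPARγ/+_5d libraries of 6 coat genes lay above those of WT_5d without overlap and of none below, against 10.2% and 8.31% of all genes tested, with the same 3 among the 6. The median difference of the 9 coat genes tested was 1.11 on the log2 scale, against 0.02 for all genes tested, under the same limit. In this bulk RNA, more cells with a gene active and more RNA per cell cannot be told apart.

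*Plin2* codes for the perilipin that is stabilised by droplets in most cells. Its FPKM was 31.3, 33.2 and 53.6 in WT_5d and 76.4, 85.3 and 109.9 in PPARγ/+_5d. The highest WT library was replicate 3, and the groups did not overlap. The difference was 1.23 on the log2 scale (SE 0.20), which is 2.34-fold with a 95% interval of 1.73 to 3.16 (adjusted p = 0.0116). Without PPARγ/+_5d replicate 3 the difference was 1.08 and no longer called in limma (adjusted p = 0.0590).

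*Plin4*, the perilipin with a long amphipathic repeat that binds droplets directly, had 3.10, 5.97 and 17.7 FPKM in WT_5d. It had 44.9, 44.9 and 67.8 FPKM in PPARγ/+_5d. No library overlapped, although the WT libraries spread widely. The difference was 2.88 on the log2 scale (SE 0.47), or 7.35-fold with a 95% interval of 3.58 to 15.1 (adjusted p = 0.0132). Without PPARγ/+_5d replicate 3 the difference was 2.68 and no longer called in limma (adjusted p = 0.0727). With each library left out in turn the difference ranged from 2.31 to 3.55, the highest without WT_5d replicate 3. The exons of *Plin4* (chr17:56100591-56109803, minus strand, GRCm38) share 17 bases with *Hdgfl2* on the other strand.

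*Plin1*, the adipocyte perilipin (chr7:79720218-79732903, minus strand), was nearly absent from WT cells. It had 3, 0 and 1 fragments in WT_5d and 59, 102 and 236 in PPARγ/+_5d, or 0.612, 1.02 and 2.73 FPKM in the latter. All PPARγ/+ libraries were above all WT libraries, and replicate 3 was 2.68 times the next. From 4 and 397 fragments in all, the ratio at equal depth was 110, with an exact 95% interval of 42.7 to 407 that covers counting error only. The ratio was 64.4 without PPARγ/+_5d replicate 3, 275 without WT_5d replicate 1, which held 3 of the 4 WT fragments, and between these without any other single library of 5d. The fitted difference was 3.56 on the log2 scale (SE 0.43, adjusted p = 0.00271), and its size depends on the 0.1 added to each value.

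*Cidec*, whose protein enlarges the single droplet of white adipocytes, had no fragment in any of the 6 WT libraries. It had 7, 15 and 46 fragments in PPARγ/+_5d, that is 0.182, 0.376 and 1.33 FPKM. Against a floor of 3 fragments over the WT_5d group, *Cidec* was at least 25.2-fold higher. Without PPARγ/+_5d replicate 3, which held 46 of the 68 fragments, 22 were left and *Cidec* was at least 11.7-fold higher, and without 1 of the WT_5d libraries, where the same floor stands on less depth, it was at least 15.7- to 18.0-fold higher. The fitted difference was 2.53 (SE 0.50, adjusted p = 0.0330), which again depends on the added value. The call was lost with 1 FPKM added (0.64, adjusted p = 0.124) and with the replicate number as a block (adjusted p = 0.0609). It was also lost in 7 of the 12 fits without 1 library (adjusted p of up to 0.108). Among these 7, the fit without PPARγ/+_5d replicate 3 gave 1.87 (adjusted p = 0.0672).

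*Plin5* had 1, 0 and 1 fragments in WT_5d and 3, 7 and 9 in PPARγ/+_5d. The groups did not overlap, and the ratio at equal depth was 10.6 with a counting interval of 2.55 to 93.4. The test gave 1.11 on the log2 scale (SE 0.28, adjusted p = 0.0786) and made no call. *Cideb*, whose product acts in hepatocyte lipoprotein loading, had 9, 8 and 11 fragments in WT_5d and 11, 11 and 17 in PPARγ/+_5d, a difference of 0.47 (SE 0.31, adjusted p = 0.508). For *Cideb* 1136 of the 1488 annotated exonic bases lie under exons of *Nop9* on the other strand. The study's methods do not say whether the libraries kept strand, so the fragments of *Cideb* are uncertain. *Cidea*, known from brown adipocytes, had 2 fragments in WT_5d replicate 1, 3 in PPARγ/+_5d replicate 3 and none in the other 10 libraries. At this depth no difference in *Cidea* was detectable, and the 3 brown adipocyte markers summed to at most 0.0796 FPKM in any library.

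The 4 calls on 5d depend on how the spread is estimated. With only the 6 libraries of 5d in the fit, no coat gene was called and 28 genes were called in all, and the adjusted p was 0.0820 for *Plin1*, 0.142 for *Plin2*, 0.164 for *Plin4* and 0.191 for *Cidec*, while 5 of the 9, those 4 and *Plin5*, had an unadjusted p of at most 0.05 in that fit, as had 12.7% of all genes tested. *Plin1*, *Plin5* and *Cidec*, which passed the filter through PPARγ/+ libraries, are among the 5. Without WT_5d replicate 2, or without PPARγ/+_5d replicate 3, *Plin1* alone was called, and without WT_5d replicate 3 there were 5 calls, with *Plin5* added (1.16, adjusted p = 0.0408).

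**Figure D2:**
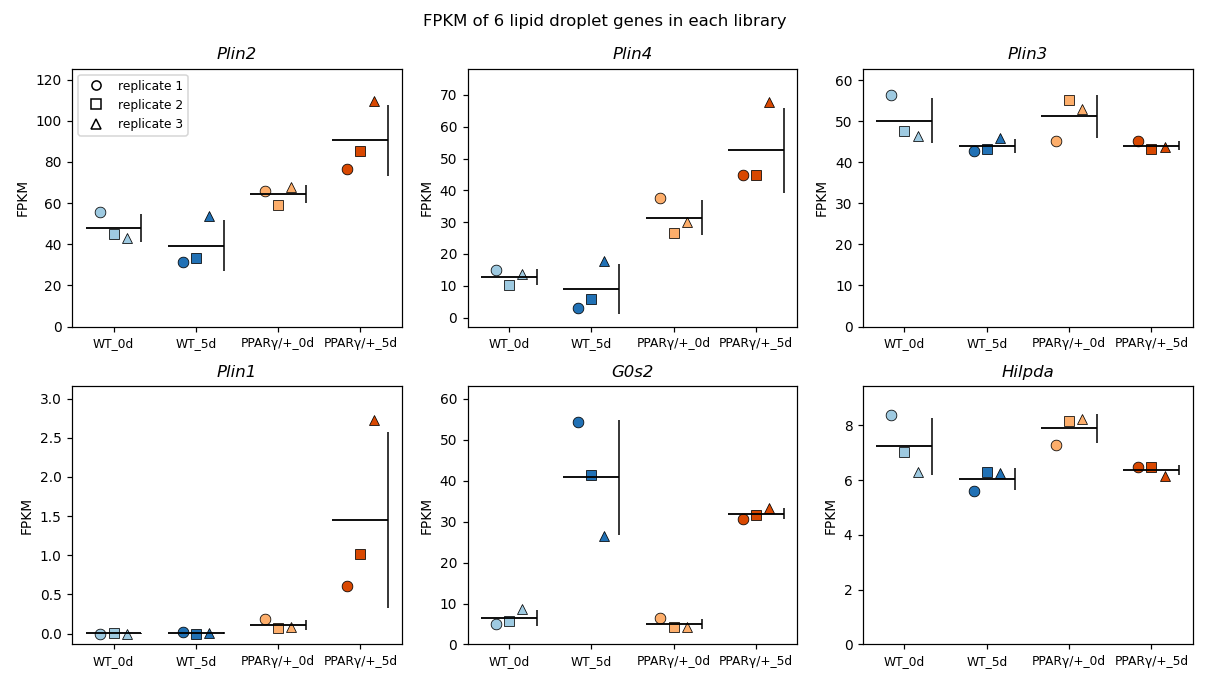
FPKM of *Plin2*, *Plin4*, *Plin3*, *Plin1*, *G0s2* and *Hilpda* in each library of the 4 groups (vertical axes, linear). Points are libraries, horizontal lines group means and vertical bars 1 SD either side (n = 3). *Plin2*, *Plin4* and *Plin1* are highest in the PPARγ/+_5d libraries, *G0s2* is high in both groups on 5d, and *Plin3* and *Hilpda* stay within 42.7 to 56.3 and 5.59 to 8.37 FPKM.

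Before differentiation, on 0d, no coat gene was called between the lines, while 4 of the 9 tested, and 21.3% of all genes tested, had an unadjusted p of at most 0.05 in limma. These 4 were *Plin4* and the 3 genes that entered the test only through PPARγ/+ libraries, *Plin1*, *Plin5* and *Cidec*, so the count is no separate support. Of all genes tested 0.571% were called higher, 1.39% lower and 1.96% in either direction. The libraries of 5 coat genes lay higher in PPARγ/+_0d without overlap, and of none lower, patterns found for 13.7% and 13.1% of all genes tested, and 3 of the 5 are the genes that entered the test through PPARγ/+ libraries. The median difference of the 9 tested was 0.43 on the log2 scale, against 0.02 for all genes, under the same limit.

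*Plin4* had the clearest of these differences among the abundant members, with 14.9, 10.1 and 13.7 FPKM in WT_0d and 37.5, 26.6 and 30.2 in PPARγ/+_0d. The groups were apart by more than the range of either. The difference was 1.28 (SE 0.47, adjusted p = 0.144) with all 12 libraries in the fit, where the wide WT_5d group enters the spread, and it was called with the 6 libraries of 0d alone (adjusted p = 0.0266) and without WT_5d replicate 3 (adjusted p = 0.0115). *Plin2* had 55.9, 45.0 and 43.2 FPKM in WT_0d and 65.8, 59.3 and 67.9 in PPARγ/+_0d. These did not overlap either, and the difference was 0.43 (SE 0.20, adjusted p = 0.239).

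Of the low members, *Plin1* had 0, 1 and 0 fragments in WT_0d and 21, 8 and 8 in PPARγ/+_0d, a ratio of 34.7 with a counting interval of 5.85 to 1406 (adjusted p = 0.213) that rests on 1 WT fragment. It was 22.6 to 42.5 without any other library of 0d, and without WT_0d replicate 2, which held that fragment, *Plin1* was at least 7.26-fold higher against 3 fragments over the group. *Cidec* had none in WT_0d and 14, 5 and 4 in PPARγ/+_0d, at least 7.19-fold more against 3 fragments over the group (adjusted p = 0.149), and at least 4.24- to 8.79-fold more without 1 library of 0d, the lowest without PPARγ/+_0d replicate 1. *Plin5* had 3, 2 and 2 fragments against 7, 6 and 7, a ratio of 2.68 (1.09 to 7.50, adjusted p = 0.219). All 3 lay above WT_0d in every PPARγ/+_0d library, at 4 to 21 fragments a library. They entered the test only through PPARγ/+ libraries, so this direction is a description and no separate support. With 0.01 FPKM added in place of 0.1, *Plin1* and *Cidec* were called.

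**Figure D3:**
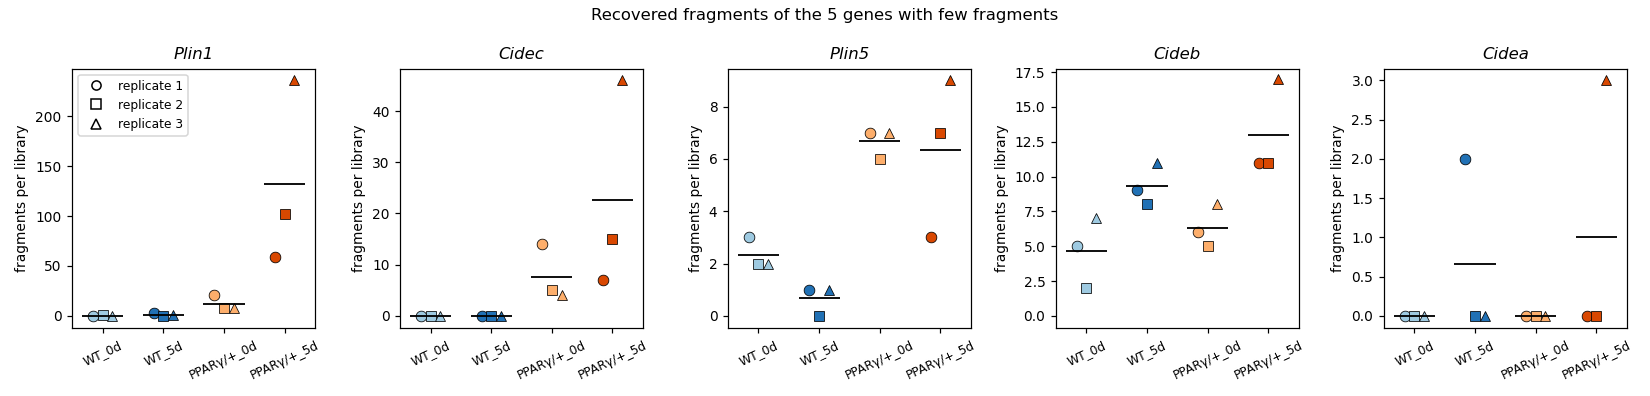
Recovered fragments per library (vertical axes, linear) of the 5 coat genes with few fragments, *Plin1*, *Cidec*, *Plin5*, *Cideb* and *Cidea*, in the 4 groups. Points are libraries and horizontal lines group means. *Cidec* is at 0 in all 6 WT libraries, and PPARγ/+_5d replicate 3 (triangle) is the highest library in each panel.

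During differentiation *G0s2* rose in both lines. It was the only one of the 9 coat genes tested that was called over differentiation in WT cells. A call here needed a 2-fold difference or more with an unadjusted p of 0.05 or less on the 6 libraries of the line, and of all genes tested 8.94% were called higher, 7.53% lower and 16.5% in either direction. *G0s2* (chr1:193272161-193273217, minus strand) codes for a small inhibitor of adipose triglyceride lipase. It had 4.91, 5.83 and 8.78 FPKM in WT_0d and 54.4, 41.5 and 26.6 in WT_5d. The lowest library on 5d was replicate 3, the one with few myotube markers, and it still lay above all libraries on 0d. The change was 2.61 on the log2 scale (SE 0.31, adjusted p = 0.00156), or 6.12-fold with a 95% interval of 3.63 to 10.3.

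In PPARγ/+ cells *G0s2* went from 6.40, 4.32 and 4.31 FPKM on 0d to 30.7, 31.6 and 33.4 on 5d. The 3 libraries on 5d were close together and far from those on 0d. The change was 2.67 (SE 0.15, adjusted p = 4.80e-05), or 6.37-fold with an interval of 4.94 to 8.21. Between the lines *G0s2* differed by -0.35 on 0d (95% interval -0.93 to 0.23) and by -0.30 on 5d (-0.88 to 0.28), and its change over differentiation differed between them by 0.06 (-0.76 to 0.88), none of which passed the test.

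*Plin1* was the other coat gene called between days in PPARγ/+ cells, where 9.11% of all genes tested were called higher, 6.06% lower and 15.2% in either direction. Its fragments went from 21, 8 and 8 to 59, 102 and 236, without overlap. The ratio at equal depth was 12.8 with a counting interval of 9.10 to 18.4, and it was 7.45 without PPARγ/+_5d replicate 3 and 19.5 without PPARγ/+_0d replicate 1. The fitted change was 2.69 (SE 0.52, adjusted p = 0.00528). Without PPARγ/+_5d replicate 3 the fitted change of *Plin1* was still called, and it ranged from 2.13 to 3.13 over the fits without 1 library. Of the 4 libraries through which *Plin1* entered the test, 3 were of PPARγ/+_5d. In WT cells *Plin1* had 1 fragment on 0d and 4 on 5d over 3 libraries each, a ratio of 4.01 with a counting interval of 0.397 to 198.

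5 further coat genes had an unadjusted p of at most 0.05 in PPARγ/+ cells with less than a 2-fold change, while 54.4% of all genes tested had such a p at any size of change. *Plin4* differed by 0.72 (SE 0.19, adjusted p = 0.0204) and *Plin2* by 0.48 (SE 0.14, adjusted p = 0.0257), and neither overlapped between the days. *Cideb* had 6, 5 and 8 fragments on 0d and 11, 11 and 17 on 5d, a difference of 0.93 (adjusted p = 0.0312), which passed 2-fold with median-ratio scaling (1.02). *Hilpda* differed by -0.30 and *Plin3* by -0.21, and the median of all genes was -0.10. *Cidec* overlapped between 0d and 5d (14, 5 and 4 against 7, 15 and 46 fragments), with a difference of 1.18 (SE 0.62, adjusted p = 0.164) and a ratio at equal depth of 3.52 that was 1.64 without PPARγ/+_5d replicate 3 and 5.95 without PPARγ/+_0d replicate 1, and *Plin5* gave 0.06 (SE 0.30). Libraries lay higher on 5d without overlap for 5 coat genes and lower for 2, against 23.8% and 34.4% of all genes tested.

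In WT cells *Plin2* and *Plin4* had lower means on 5d, 39.4 against 48.0 FPKM and 8.94 against 12.9 FPKM, but the groups overlapped through WT_5d replicate 3. The differences of -0.32 (SE 0.22) and -0.87 (SE 0.59) did not pass the test. Without that replicate *Plin4* was called lower, at -1.54 on the log2 scale (adjusted p = 0.0176). Libraries of 2 coat genes lay higher on 5d without overlap and of 3 lower, against 20.2% and 30.9% of all genes tested.

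**Figure D4:**
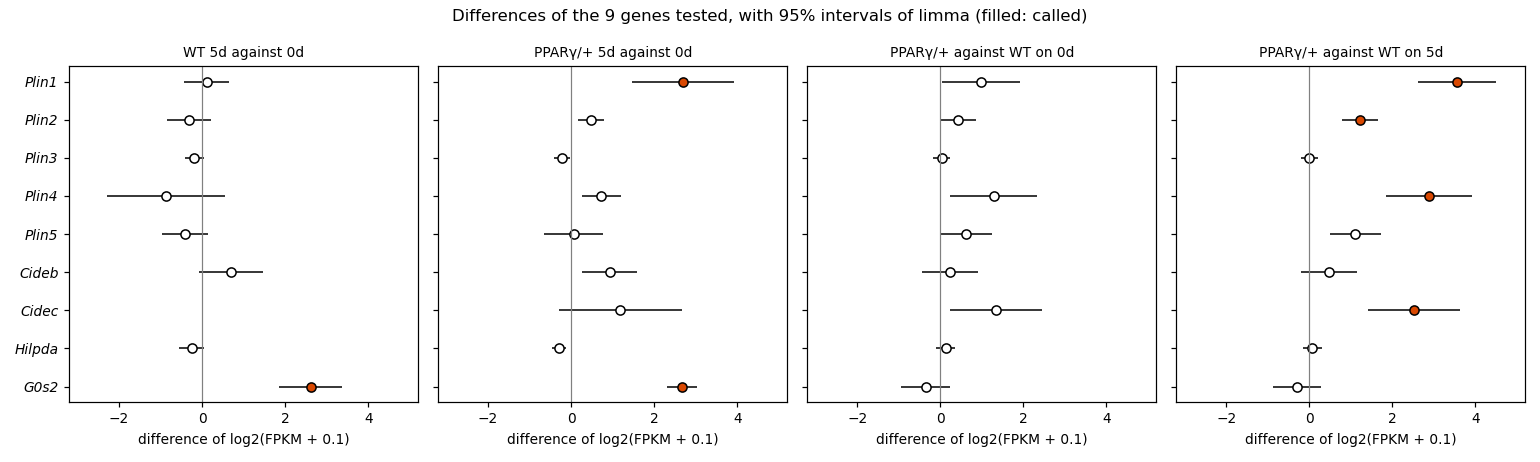
Differences of log2(FPKM + 0.1) from limma for the 9 coat genes tested, in the 4 comparisons between 2 groups, with 95% intervals. Filled points were called, namely *G0s2* between days in both lines, *Plin1* between days in PPARγ/+ cells, and *Plin1*, *Plin2*, *Plin4* and *Cidec* between the lines on 5d, and *Cidec* is left out where both groups are at 0.

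*Plin3* and *Hilpda* had the smallest differences between the lines of the 9 genes tested, on both days. *Plin3*, the perilipin that moves from cytosol to new droplets, had 56.3, 47.5 and 46.3 FPKM in WT_0d and 45.3, 55.3 and 52.9 in PPARγ/+_0d, and 42.7, 43.1 and 45.9 in WT_5d against 45.2, 43.2 and 43.7 in PPARγ/+_5d. The groups overlapped on both days. The difference between the lines was 0.03 on 0d (95% interval -0.17 to 0.23) and 0.01 on 5d (-0.19 to 0.20), which as a fold leaves 0.875 to 1.15 on 5d, and with median-ratio scaling both had the other sign (-0.01 and -0.03). *Hilpda*, a hypoxia-inducible lipase inhibitor, had means of 7.23 ± 1.05, 6.04 ± 0.396, 7.89 ± 0.529 and 6.37 ± 0.193 FPKM in WT_0d, WT_5d, PPARγ/+_0d and PPARγ/+_5d. The difference between the lines was 0.13 (-0.09 to 0.36) on 0d and 0.08 (-0.15 to 0.30) on 5d. From 0d to 5d both genes lay lower without overlap in both lines, with -0.18 in WT and -0.21 in PPARγ/+ cells for *Plin3* and -0.25 and -0.30 for *Hilpda*. Median-ratio scaling moved the median of all genes by 0.10 in WT and 0.12 in PPARγ/+ cells. Relative to the median of all genes the change of *Plin3* was -0.10 and -0.12, and that of *Hilpda* -0.16 and -0.21.

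The interaction of line and day tested whether differentiation changed a gene by different amounts in WT and PPARγ/+ cells. No coat gene reached an adjusted p of 0.05 in limma, where 0.583% of all genes tested were called with a positive, 0.178% with a negative and 0.76% with either sign, and 3 of the 9, and 12% of all genes tested, had an unadjusted p of at most 0.05. These were *Plin1* with 2.57 on the log2 scale (SE 0.61, adjusted p = 0.0930), *Plin2* with 0.80 (SE 0.28, adjusted p = 0.268) and *Plin4* with 1.59 (SE 0.67, adjusted p = 0.374). Without WT_5d replicate 3, *Plin2* (1.04, adjusted p = 0.0253) and *Plin4* (2.26, adjusted p = 0.0142) were called. The divergence of *Plin2* and *Plin4* between the lines over differentiation was thus called or not by a single WT library.

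PPARγ/+_5d replicate 3, which had the highest *Pparg*, also had the highest level of its group in 8 of the 10 coat genes, all but *Plin3* and *Hilpda*. For *Cidec* it was 3.55 times the next library, for *Plin1* 2.68 times, for *Plin4* 1.51 times, for *Plin2* 1.29 times and for *G0s2* 1.06 times. Among the WT_5d libraries, replicate 3 was the highest in *Pparg*, *Plin2* and *Plin4* and the lowest in *G0s2* and in the myotube markers. No correlation of a coat gene with *Pparg* over the 12 libraries is given, since the libraries fall into clusters by line.

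**Figure D5:**
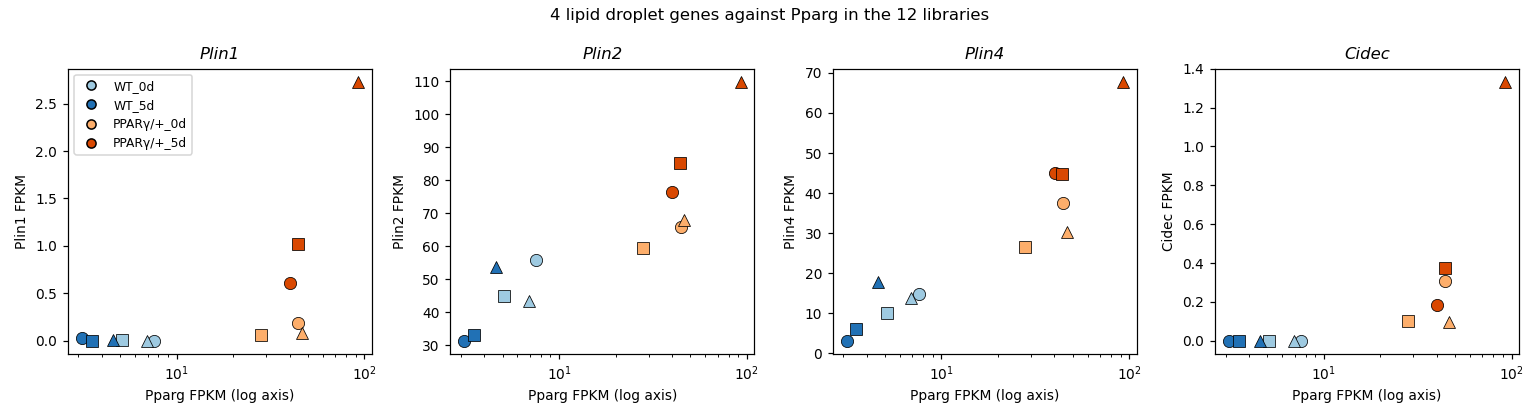
FPKM of *Plin1*, *Plin2*, *Plin4* and *Cidec* (vertical axes, linear) against the FPKM of *Pparg* (horizontal axis, log) in the 12 libraries, coloured by group, with circles, squares and triangles for replicates 1, 2 and 3. The WT libraries lie at 3.12 to 7.56 FPKM of *Pparg* and the PPARγ/+ libraries at 28.0 to 92.7, and the library at 92.7 is the highest in each panel.

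Markers of adipocytes and myotubes moved with these differences, and their part in the results was not tested. The adipocyte list had 8 genes, of which 4 or 5 reached 1 FPKM in PPARγ/+_5d and 2 in WT_5d. Its summed FPKM was 7.45 to 9.997 in WT_0d, 9.54 to 16.1 in WT_5d, 13.97 to 15.46 in PPARγ/+_0d and 33.6 to 93.6 in PPARγ/+_5d. *Adipoq*, the adipocyte hormone, was at 0 to 0.0313 FPKM in WT libraries, 1.06 to 2.46 in PPARγ/+_0d and 8.03 to 40.5 in PPARγ/+_5d, whereas *Lep* was at 0 in all 12 libraries. The 8 myotube markers summed to 11.8 to 59.5 FPKM in WT_0d, 442 to 1963 in WT_5d, 7.51 to 15.45 in PPARγ/+_0d and 357 to 430 in PPARγ/+_5d. The 5 markers of proliferating myoblasts summed to 91.4 to 125 FPKM in WT_0d, 29.6 to 53.0 in WT_5d, 72.0 to 105 in PPARγ/+_0d and 32.9 to 36.2 in PPARγ/+_5d, with 4 or 5 of the 5 at 1 FPKM or more in every library. Among them *Mki67*, a marker of cycling cells, had means of 50.1 and 4.87 FPKM on 0d and 5d in WT cells and 48.7 and 4.02 in PPARγ/+ cells, and *Ccnb1*, the mitotic cyclin, 30.1 and 1.87 and then 30.2 and 1.84. *Myod1*, the myoblast regulator, went the other way, with 6.57 to 21.5 FPKM in WT_0d and 19.9 to 41.5 in WT_5d. It had 5.03 to 9.68 FPKM in PPARγ/+_0d and 19.6 to 22.1 in PPARγ/+_5d. *Myf5*, another of the 5, was lower on 5d in WT cells, at 3.53 to 5.96 against 11.3 to 13.2 FPKM on 0d. In PPARγ/+ cells *Myf5* was higher on 5d, at 5.58 to 8.47 against 3.66 to 4.25 FPKM on 0d. *Pax7* had higher means on 5d in both lines, with libraries that overlapped between the days. The 3 endothelial markers summed to at most 0.115 FPKM, and of the 4 macrophage markers a single one reached 1 FPKM in any library.

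Each coat gene with a group mean of at least 1 FPKM was set beside the genes whose log2(FPKM + 0.1) ran most like it over the 12 libraries. The values are Pearson's r given as a description, over libraries that share their 4 groups and depths. *Plin2* and *Plin4* were each other's nearest gene of all those tested (r = 0.966). Nearest to *Plin1* were *Trarg1* (0.984), a regulator of glucose transporter traffic in adipocytes, *Skint10* (0.976) and *Lpl* (0.974), the lipoprotein lipase. *G0s2* ran with *Best1* (0.983), *Slc6a7* (0.983) and *Rab3il1* (0.980). *Plin3* ran with *Ap3b1* (0.977), *Rnf111* (0.9746) and *Ttf1* (0.964), and *Hilpda* with *Ptdss2* (0.966), *Nom1* (0.966) and *Hgs* (0.962).

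Of 39 other genes of the droplet (lipases and their cofactors, biogenesis, surface enzymes and trafficking), 35 were tested. In PPARγ/+ against WT cells on 5d, 2 were called higher and 1 lower, beside 0.571% and 0.533% of all genes tested. On 0d none was called (8 had an unadjusted p of at most 0.05 in limma, beside 21.3% of all genes). The medians were 0.05 on 5d and 0.12 on 0d, against 0.02 for all genes on both days. The 2 were *Lipe*, hormone-sensitive lipase, with 1.56 ± 0.401 FPKM in WT_5d and 5.22 ± 2.06 in PPARγ/+_5d (1.64, SE 0.25, adjusted p = 0.00867), and *Mgll*, monoglyceride lipase, with 0.843 ± 0.164 and 2.58 ± 0.335 FPKM (1.52, SE 0.19, adjusted p = 0.00307). Without PPARγ/+_5d replicate 3 both were still called, at 1.35 and 1.42 in limma. The gene called lower was *Hsd17b13*, a droplet-bound dehydrogenase, with means of 0.673 and 0.0387 FPKM. It passed the filter only through its 3 WT_5d libraries, so that group had to be the higher one, and its call on 5d was lost without WT_5d replicate 2 (adjusted p = 0.0589) or without PPARγ/+_5d replicate 2 (adjusted p = 0.0532). *Pnpla2*, adipose triglyceride lipase and the target of both inhibitors in the set, had 13.0 ± 1.27 and 19.8 ± 4.16 FPKM (0.58, SE 0.17, adjusted p = 0.123). *Abhd5*, its co-activator, had 6.56 ± 0.407 and 6.99 ± 0.544 FPKM (0.09, SE 0.09). *Pnpla2*, *Abhd5* and *Hsd17b13* were named after their values were seen.

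Between 0d and 5d, 2 of these 35 genes were called higher in WT cells (*Hsd17b13* and *Dhrs3*) and 3 in PPARγ/+ cells (*Lipe*, *Mgll* and *Dhrs3*). None was called lower, and *Hsd17b13* was fixed in direction by the same filter. Of all genes tested, 8.94% were called higher and 7.53% lower in WT cells, and 9.11% and 6.06% in PPARγ/+ cells. The medians of the list were 0.10 and -0.07 against -0.08 and -0.10 for all genes. *Lipe* went from 1.17 ± 0.103 to 5.22 ± 2.06 FPKM in PPARγ/+ cells (1.998, SE 0.25, adjusted p = 0.000884) and *Mgll* from 1.25 ± 0.256 to 2.58 ± 0.335 (1.005, SE 0.17, adjusted p = 0.00309). Without PPARγ/+_5d replicate 3 the change of *Lipe* was still called (1.70), and that of *Mgll* was under 2-fold (0.90), as it was without PPARγ/+_0d replicate 1 (0.97) or replicate 2 (0.90). In the interaction 1 of the 35 was called, beside 0.76% of all genes tested. It was *Cavin1* (0.53, adjusted p = 0.0492), a caveolar coat gene. That call was lost in 11 of the 12 fits without 1 library, all but the one without WT_5d replicate 3 (adjusted p = 0.0311).

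Of 30 other known PPAR targets, 27 were tested. The lists share genes, so their counts are not separate observations. *Lipe* is also among the other droplet genes above. *Fabp4*, *Adipoq*, *Retn*, *Cebpa*, *Pck1* and *Lipe* are also among the adipocyte markers. Between the lines 6 were called higher on 0d and 7 on 5d, beside 0.571% of all genes tested on each day, and none lower. *Fabp4*, *Adipoq* and *Aqp7* passed the filter only through PPARγ/+ libraries, so their direction between the lines was fixed. *Fabp4*, the adipocyte fatty acid binding protein, was at 0.0305 ± 0.0199 FPKM in WT_0d and 1.86 ± 0.234 in PPARγ/+_0d (3.91, SE 0.30, adjusted p = 9.82e-05). On 5d it was at 0.0204 ± 0.0106 and 6.44 ± 3.39 FPKM (5.65, SE 0.30, adjusted p = 5.28e-06), and without PPARγ/+_5d replicate 3 the difference was 5.25 and still called. From 0d to 5d, 4 of the 27 were called higher in WT and 10 in PPARγ/+ cells, and none lower. Of all genes tested, 8.94% and 9.11% were called higher. The medians were 0.15 and 0.41, against -0.08 and -0.10 for all genes. In the interaction none was called, and 6, beside 12% of all genes, had an unadjusted p of at most 0.05 in limma.

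All 18 genes of a list of hypoxia-responsive genes, chosen because *Hilpda* is one, were tested. 3 were called higher from 0d to 5d in WT cells (*Car9*, *Adm* and *P4ha1*), and in PPARγ/+ cells *Car9* was called higher and *Pgk1* lower. Of all genes tested, 8.94% were called higher in WT cells, and 9.11% higher and 6.06% lower in PPARγ/+ cells. *Adm*, the vasodilator adrenomedullin, went from 0.448 ± 0.0865 to 1.996 ± 0.460 FPKM in WT cells (1.93, SE 0.23, adjusted p = 0.00151) and *Car9*, a carbonic anhydrase, from 1.51 ± 0.0413 to 5.68 ± 2.06 (1.79, SE 0.24, adjusted p = 0.00249). *Hilpda* lay lower on 5d over the same libraries. None of the 18 was called between the lines on either day or in the interaction, where 6, 9 and 5 had an unadjusted p of at most 0.05 in limma on 0d, on 5d and in the interaction, beside 21.3%, 15.3% and 12% of all genes tested.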

How the data were processed

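RNA was sequenced by the study as paired-end libraries from 12 samples in 4 groups of 3. Per the study's methods, the authors used Trim Galore for trimming, STAR for alignment to GRCm38 and HTSeq for counting on known genes, and they deposited FPKM for 46983 genes. The labels name mm9 as the build. A second deposited table held log2 values that matched log2(FPKM + 1) of the first to within 5.33e-14 and was not used further. No per-sample column was left out and no libraries were identical.

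Mapped fragments per library were inferred from the FPKM steps, and fragments recovered as FPKM times exonic length (GENCODE, GRCm38) times that number. The annotated length gave whole numbers (tolerance 0.01) for 21231 of 27138 expressed genes, and for *Plin3*, *Cidea* and *Cideb* the length was inferred. Ratios of fragments have exact (Clopper-Pearson) 95% intervals, and the floor was 3 fragments over a group.

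The 18023 genes with at least 0.1 FPKM in at least 3 libraries were tested on log2(FPKM + 0.1) with limma 3.58.1 (empirical Bayes with a trend, R 4.3.3) in place of a count test. Days were compared within a line on its 6 libraries (unadjusted p at most 0.05, fold at least 2), lines on each day over 12 libraries (Benjamini-Hochberg adjusted p at most 0.05, fold at least 2), and the interaction at an adjusted p of at most 0.05. Scripts in Python 3.11.15 (pandas 2.3.3, scipy 1.17.1) and limma fits were tested on simulated data. The alternatives tried were adding 1 or 0.01 FPKM, a filter at 1 FPKM or none, median-ratio scaling, quantile normalization, the replicate number as a block, the other p-value, the other set of libraries, and each library left out.

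The members and lists were chosen with earlier results of these data known. Named were all 10 members, *Pparg*, the 3 genes of most similar pattern for each member of at least 1 FPKM in a group, and from each list the 2 called genes of largest change with at least 1 FPKM in the higher group. Other names are said to be later choices or are the called genes of a list. Promoters are RefSeq's on GRCm38.p6 and matched 9 members, with 12 windows. Of 39 other droplet genes 36 matched the table by symbol.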

Additional observations from a re-analysis of the deposited data

How the results depend on the processing

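Direction and call were recomputed with 1 choice changed at a time. Over the coat genes tested and *Pparg*, all comparisons and alternatives, 831 values kept both, 17 lost the call, 19 gained one and 23 changed sign. All of the last were in comparisons where the gene was not called. Genes of the lists are not in these counts. With 1 FPKM added, 1441 genes were called between days in WT cells, 1241 in PPARγ/+ cells, 120 between the lines on 0d and 95 on 5d. With 0.01 FPKM added, 2 coat genes (*Plin1*, *Cidec*) were called on 0d. With the filter at 1 FPKM, *Plin1* and *Cidec* were not tested, which left 1 coat gene and 1806 genes between days in PPARγ/+ cells and 2 coat genes and 93 genes between the lines on 5d. The unadjusted p gave 2 coat genes (*Plin4*, *Cidec*) and 699 genes on 0d and 720 genes on 5d. The 6 libraries of the day gave 1 coat gene on 0d (*Plin4*) and 0 coat genes and 28 genes on 5d. Quantile normalization gave -0.15 for *Plin5* between days in PPARγ/+ cells and 0.00061 for *Plin3* in the interaction, and median-ratio scaling -0.0074 and -0.032 for *Plin3* between the lines on 0d and 5d. The cause was not tested. *Cidec* between the lines on 5d also lost its call in 7 of the 12 fits without 1 library, with an adjusted p of up to 0.108.

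With each library left out in turn, between 1 and 2 coat genes and 2765 to 3057 genes were called between days in WT cells, and 2 to 4 coat genes and 2535 to 2829 genes in PPARγ/+ cells. Between the lines it was 0 to 1 coat genes and 180 to 491 genes on 0d, and 1 to 5 coat genes and 78 to 796 genes on 5d. In the interaction it was 0 to 2 coat genes and 42 to 527 genes. Values that changed sign ranged from -0.16 to 0.32 for *Plin5* between days in PPARγ/+ cells, from -0.027 to 0.12 for *Plin3* and -0.061 to 0.43 for *Cideb* between the lines on 0d, from -0.014 to 0.038 for *Plin3* on 5d, and in the interaction from -0.11 to 0.032 for *Plin3*, -0.17 to 0.036 for *Hilpda* and -0.22 to 0.29 for *G0s2*. Where 2 libraries were left, they were fitted with the spread of the remaining groups.

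The replicate numbers were not taken to pair the samples: over 18 same-numbered pairs the deviations from the group means correlated between -0.07 and 0.08. With the replicate number as a block, 61 genes were called in the interaction, 3 coat genes between the lines on 5d (*Cidec* at an adjusted p of 0.0609), 0 on 0d, 1 between days in WT and 2 in PPARγ/+ cells. Depth limits the coat genes with under 20 fragments in most libraries, whose counting intervals span several-fold ratios, such as 2.55 to 93.4 for *Plin5* between the lines on 5d.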
